A study of Mus musculus with 4 samples.

Results

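Regions of open chromatin at gene ends that were called in every liver library are the subject here. Overlapping or touching peaks of the 4 libraries were joined into regions, and a region was kept if each library had a peak in it and an end of a protein-coding gene lay within 1 kb. The regions were thus selected on the peak calls of these same libraries and on gene position. This rule gave 7782 regions, out of 17581 regions called in all 4 libraries and 38853 merged regions in all. They stood at an end of 8809 of the 21627 protein-coding genes (40.7%) on chromosomes 1 to 19 and X. The libraries came from ATAC-seq, in which a transposase cuts open DNA and adds sequencing adaptors, on 20 mg of frozen liver each, by the Omni-ATAC procedure. Wild-type mice gave 2 libraries (WT 1 and WT 2), and mice labelled PA gave 2 (PA 1 and PA 2), the latter from hypomorphic Pcca-/- mice with the A138T form of the gene. All animals were female, 11 weeks old, of the FVB background and on standard chow, and the design calls the replicates biological. Pcca and Pccb encode the subunits of propionyl-CoA carboxylase, and its loss causes propionic acidemia. The files hold peak positions with no height, so a call says that a window passed the authors' threshold and not how open it was.

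The start of a transcribed gene is a place where nucleosomes are displaced, so that transcription factors and RNA polymerase reach the DNA. Many mammalian genes start in a CpG island, a stretch that has kept its CpG dinucleotides, and such starts tend to be open in most cell types. Starts with few CpGs more often belong to genes of a specialised tissue, and the liver uses many of these for the plasma proteins and detoxifying enzymes it makes.

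Windows of 300 bases, from 250 before to 50 after a start, are shown for 9 starts on which the results turn. Hjurp and Zbtb18 are the earliest members whose region overlaps such a window. Hibch and Fgg are the first amino acid and plasma protein genes with a listed window. Pccb and both listed starts of Pcca are also shown. The others are the first genes by gap between genotypes whose region overlaps their start window. Of these, Slc25a12 stood earlier in both PA lists and Adprhl1 in both WT lists. Sequences are from RefSeq, build GRCm38.p6, 5′ to 3′ on the strand of the gene. Capitals mark matches, on either strand, to 12 motifs whose letters are given with the motif shares. Hjurp is at chr1:88277530-88277829 on the minus strand, Zbtb18 at chr1:177442101-177442400 (plus) and Hibch at chr1:52844788-52845087 (plus). Pccb is at chr9:101034835-101035134 (minus), and the Pcca starts are at chr14:122484115-122484414 and chr14:122534078-122534377 (both plus). Fgg is at chr3:83007474-83007773 (plus), Slc25a12 at chr2:71367706-71368005 (minus) and Adprhl1 at chr8:13254113-13254412 (minus).
Hjurp: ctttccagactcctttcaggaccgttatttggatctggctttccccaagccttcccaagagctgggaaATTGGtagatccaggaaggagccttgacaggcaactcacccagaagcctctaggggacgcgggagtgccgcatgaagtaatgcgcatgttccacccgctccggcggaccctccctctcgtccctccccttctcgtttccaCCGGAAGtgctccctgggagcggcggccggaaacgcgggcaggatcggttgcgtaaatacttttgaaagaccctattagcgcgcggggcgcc
Zbtb18: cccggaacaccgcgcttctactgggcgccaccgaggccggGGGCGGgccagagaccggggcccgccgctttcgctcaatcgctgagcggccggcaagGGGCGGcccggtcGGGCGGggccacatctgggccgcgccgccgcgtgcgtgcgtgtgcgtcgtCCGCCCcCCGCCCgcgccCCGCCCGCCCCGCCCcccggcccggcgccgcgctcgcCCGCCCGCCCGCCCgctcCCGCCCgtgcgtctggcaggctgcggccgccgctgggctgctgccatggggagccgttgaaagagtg
Hibch: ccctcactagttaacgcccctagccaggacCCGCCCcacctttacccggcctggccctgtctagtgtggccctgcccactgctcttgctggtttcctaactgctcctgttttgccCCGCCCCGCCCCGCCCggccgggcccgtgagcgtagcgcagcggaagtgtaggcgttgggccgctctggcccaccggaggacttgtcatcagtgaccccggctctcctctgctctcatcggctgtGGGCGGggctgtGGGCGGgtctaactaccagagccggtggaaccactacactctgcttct
Pccb: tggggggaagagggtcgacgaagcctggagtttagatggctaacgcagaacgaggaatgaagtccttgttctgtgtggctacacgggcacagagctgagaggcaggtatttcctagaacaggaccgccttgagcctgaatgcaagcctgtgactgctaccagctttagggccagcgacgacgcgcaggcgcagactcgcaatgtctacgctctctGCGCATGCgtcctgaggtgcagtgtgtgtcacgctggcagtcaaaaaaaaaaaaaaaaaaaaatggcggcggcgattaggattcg
Pcca, first start: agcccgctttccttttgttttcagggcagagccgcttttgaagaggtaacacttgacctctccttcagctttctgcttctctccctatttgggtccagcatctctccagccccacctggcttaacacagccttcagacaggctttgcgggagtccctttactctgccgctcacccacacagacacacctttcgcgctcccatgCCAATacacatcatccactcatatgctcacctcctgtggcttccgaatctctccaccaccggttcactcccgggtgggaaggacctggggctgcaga
Pcca, second start: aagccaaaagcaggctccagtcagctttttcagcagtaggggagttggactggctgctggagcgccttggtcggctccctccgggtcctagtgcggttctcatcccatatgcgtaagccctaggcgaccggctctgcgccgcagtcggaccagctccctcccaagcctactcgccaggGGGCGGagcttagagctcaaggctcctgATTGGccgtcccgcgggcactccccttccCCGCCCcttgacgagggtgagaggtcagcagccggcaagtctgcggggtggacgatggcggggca
Fgg: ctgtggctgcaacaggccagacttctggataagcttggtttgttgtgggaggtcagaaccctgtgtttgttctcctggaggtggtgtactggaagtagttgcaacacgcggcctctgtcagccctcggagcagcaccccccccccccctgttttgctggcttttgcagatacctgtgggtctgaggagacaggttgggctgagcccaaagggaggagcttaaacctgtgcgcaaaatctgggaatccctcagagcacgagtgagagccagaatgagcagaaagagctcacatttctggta
Slc25a12: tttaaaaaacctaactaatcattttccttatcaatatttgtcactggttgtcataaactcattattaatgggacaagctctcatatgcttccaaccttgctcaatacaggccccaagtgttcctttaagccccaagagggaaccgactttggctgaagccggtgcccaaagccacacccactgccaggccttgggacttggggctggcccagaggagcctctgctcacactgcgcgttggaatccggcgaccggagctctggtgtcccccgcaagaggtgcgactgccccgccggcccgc
Adprhl1: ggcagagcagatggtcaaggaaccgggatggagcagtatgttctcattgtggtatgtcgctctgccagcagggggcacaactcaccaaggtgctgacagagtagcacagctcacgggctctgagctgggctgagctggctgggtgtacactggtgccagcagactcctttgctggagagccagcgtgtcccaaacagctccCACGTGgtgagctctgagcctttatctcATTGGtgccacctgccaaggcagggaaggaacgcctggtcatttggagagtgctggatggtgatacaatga
The Zbtb18 window held 51 CpGs and a run of GC boxes, and its ratio of observed to expected CpG was 1.03. Hibch and Hjurp held 20 and 22 CpGs, Fgg 5 and Adprhl1 6. No letters of the 12 motifs were found in the windows of Fgg and Slc25a12.

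Presence in every library and position at a gene end went together. Of the regions called in all 4 libraries, 44.3% lay within 1 kb of a gene end (95% Clopper-Pearson interval 43.5 to 45.0, which covers the counting of regions only). The share was 10.7% for regions called in 1 library, 13.4% for those in 2 and 17.5% for those in 3. Both properties are part of the rule, so these shares describe the selection. Most members covered the gene end itself: 6350 (81.6%) overlapped it, 663 lay 1 to 250 bp from it, and 191 lay 751 to 1000 bp from it. The 9 members just inside the limit, 986 to 997 bp from an end, had a median place of 47.6% on the scale given next, and the 11 regions just outside it, at 1001 to 1017 bp, had 57.2%.

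The lines of each list were not in genome order, and the sources used here do not state their order. Place in a list is used as a description only: it is the rank of a region's peak among the 17581 regions of all 4 libraries, in percent, with 0 at the first line. Regions at gene ends stood early. Their median place was 35.7 and 32.2 for the WT lists and 29.9 and 35.4 for the PA lists. Regions in all 4 libraries that lay inside genes had medians of 58.8 to 62.9, and those between genes within 50 kb of one had 61.4 to 67.4. The genotypes overlapped: the mean of the medians was 34.0 ± 2.48 (SD, n = 2) for WT livers, and for PA livers it was 32.6 ± 3.93 (SD, n = 2), so they differed by less than the spread within either genotype. The place of a member also varied less between libraries than that of other regions. The range over the 4 lists had a median of 12.7 points at gene ends and 18.7 elsewhere, and Spearman's rho of place between pairs of libraries was 0.926 to 0.962 across members and 0.780 to 0.878 across the other regions, which are not independent replicates.

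**Figure D1:**
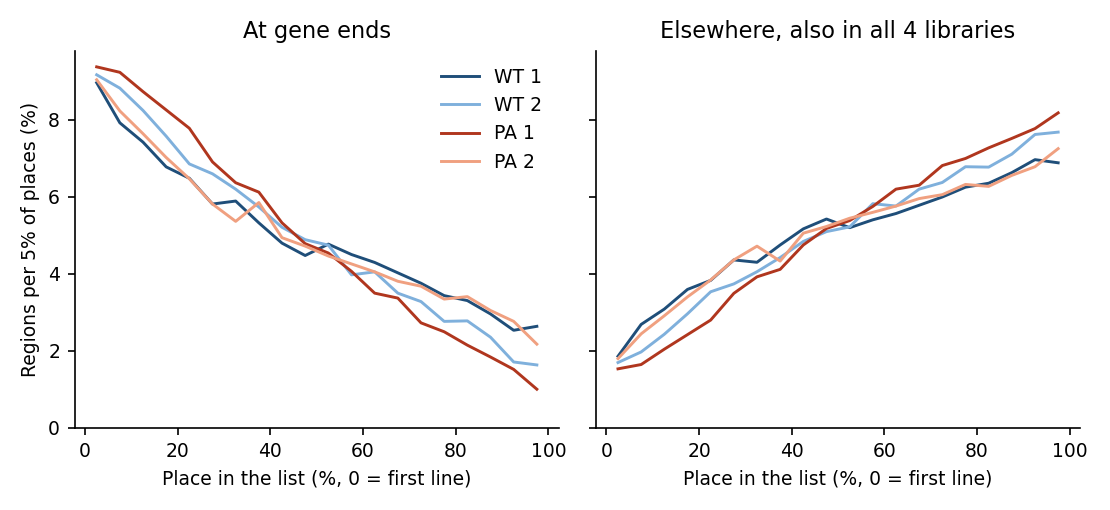
Place of regions called in all 4 libraries, by library, at gene ends (left) and elsewhere (right). The horizontal axis is place in the list in percent, with 0 at the first line, the vertical axis is the percent of regions in each 5% of places, and each line is 1 library. At gene ends the lines fall from the first places to the last, and elsewhere they climb.

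The 10 members whose latest place over the 4 lists was earliest stood within the first 0.208% of the order in every library. The first was at Hjurp, which encodes the chaperone of the centromeric histone CENP-A, with places of 0.0540 and 0.0370 in WT and 0.0597 and 0.0427 in PA. The next was at Rap2a, a small GTPase of the Ras family, with a latest place of 0.0882 at 653 bp from the gene. Zbtb18, a zinc finger repressor, and Hmgb2, a high mobility group protein of chromatin, followed with latest places of 0.128 and 0.134. The others were at Ripk2 (a kinase of innate immune signalling), Sp4 (a factor that binds GC boxes), Otud1 (a deubiquitinase), Arrdc4 (an alpha-arrestin), Ifngr1 (a chain of the interferon gamma receptor) and Ankrd50, with latest places between 0.151 and 0.208. None of these genes is in a list of liver genes, and WT and PA places overlapped at all of them but Otud1, later in both PA lists, and Ifngr1, earlier in both.

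The peaks of most members lay at nearly the same point in each library. Nearly all deposited peaks were 400 bp long, and merged members had a median length of 441 bp (quartiles 422 and 465). The centres of a member's 4 peaks spanned a median of 41 bp, against 45 bp for other regions of all 4 libraries. The longest members were at Ggnbp2 (1087 bp), Wtip (1039 bp), the neighbouring ends of Rpl7 and Rdh10 (1001 bp), Rabep2 (960 bp) and Pde5a (953 bp).

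Gene strand came from the table of starts, which had an entry for 17273 of the genes (79.9%). By those entries 5978 members (76.8%) lay at starts only, and 270 at a start and a far end, of the same gene or of different genes. Another 159 (2.04%) lay at far ends only, and 1375 had no such start within 1 kb and at least 1 gene without an entry. These classes use the annotated gene ends. A listed start at any other position lay within 1 kb of 11 of the 159 and 73 of the 1375. For the 5387 members near a start of a single gene, the median position of the peak centre relative to the start, negative upstream, was -50.5 bp for WT 1, -47.5 bp for WT 2, -51.5 bp for PA 1 and -51.5 bp for PA 2. The centre was upstream in 75.3%, 74.4%, 76.0% and 76.9% of them, in the same order, and within 200 bp of the start in 85.8% to 86.3%. The medians of the 4 libraries lay within 4 bp of each other.

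**Figure D2:**
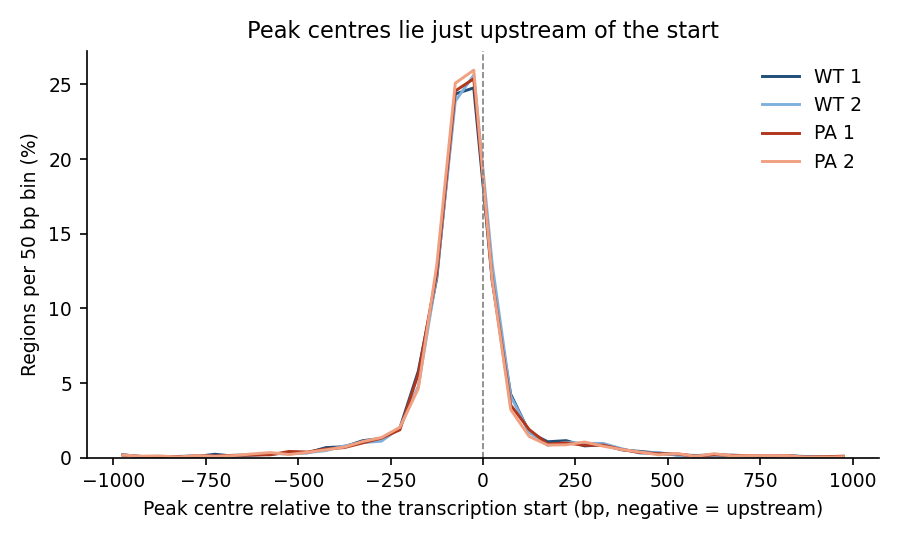
Position of the peak centre relative to the annotated start, for 5387 members near the start of a single gene. The horizontal axis is the distance in bp, negative upstream, the vertical axis is the percent of regions per 50 bp bin, and each line is 1 library. All 4 lines peak between 100 bp upstream and the start.

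The 159 members at far ends alone looked different. They covered the end in 17.6% of cases, against 83.6% for members at starts alone, and their median places were 61.1 and 61.7 in WT and 62.8 and 61.9 in PA, near those of regions inside genes. A few stood early. The earliest lay 447 bp from the far end of Lars2, the mitochondrial leucyl-tRNA synthetase, with places of 0.538 and 0.0427 in WT and 0.0313 and 0.0370 in PA. The next were at Ctdsp1 (latest place 5.94), 4933440N22Rik (6.64), Nr0b2 (8.39) and Slc11a1 (11.8). Nr0b2 encodes SHP, a nuclear receptor that represses bile acid synthesis.

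Some members lay near ends of more than 1 gene. Only 1 gene had an end within 1 kb of 6518 members, while ends of 2 genes lay near 1240 (15.9%) and ends of 3 genes near 24. One such arrangement is the divergent pair, here genes on opposite strands that start within 1000 bp of each other and point away. Of 662 such pairs, 541 (81.7%) shared a member and 91 had no member at either gene. The starts of a pair were a median of 157 bp apart. A region at one start is thus mostly within 1 kb of the other, and sharing follows largely from the definitions. Genes in such pairs had a member in 84.2% of cases (82.1 to 86.1) and other genes with a listed start in 38.2% (37.5 to 39.0). Among promoters with a CpG ratio of 0.6 or more the shares were 86.8% and 63.7%. A gene in a pair is also counted through a region at its neighbour's start, which raises its share by definition. The earliest shared member lay between Anxa5 (annexin A5) and 1810062G17Rik, whose starts are 50 bp apart, with places of 0.173 and 0.475 in WT and 0.168 and 0.208 in PA. Nfya, a subunit of the factor that binds CCAAT boxes, shared a member with Oard1 at 180 bp (latest place 0.873), and the DNA repair gene Xrcc4 shared one with Tmem167 at 59 bp (1.08). Of the members at 3 genes, the earliest covered ends of Rspry1, Psme3ip1 and LOC115486880, with places of 3.26 and 2.70 in WT and 6.63 and 3.42 in PA. The others named by the rule stood at Gm45935, Setdb2 and Cab39l (latest place 16.7), at Topors, Smim27 and Ndufb6 (19.0), at Cmc4, Mtcp1 and Brcc3 (23.7), and at Rfxank, Gm45929 and Borcs8 (27.8).

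Promoter sequence differed between genes with a member and the others. The median ratio of observed to expected CpG was 0.80 for the 7208 genes with a member and a listed start (quartiles 0.64 and 0.93), 0.64 for the 1820 genes called in 1 to 3 libraries, and 0.26 for the 8245 genes with no call at either end. Over all 17273 promoters it was 0.59. Median GC content was 61.7%, 57.7% and 50.3% in the same 3 sets. Across bins of the CpG ratio the share of genes with a member was 6.33% below 0.2, 16.8% from 0.2, 38.2% from 0.4, 59.6% from 0.6, 70.8% from 0.8, 74.7% from 1 and 81.1% from 1.2. Sequence is a property of the reference and was not used by the rule, but genes are not replicates and no test was made. Transposase cutting and sequencing both depend on base composition, and their part in these shares was not tested.

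**Figure D3:**
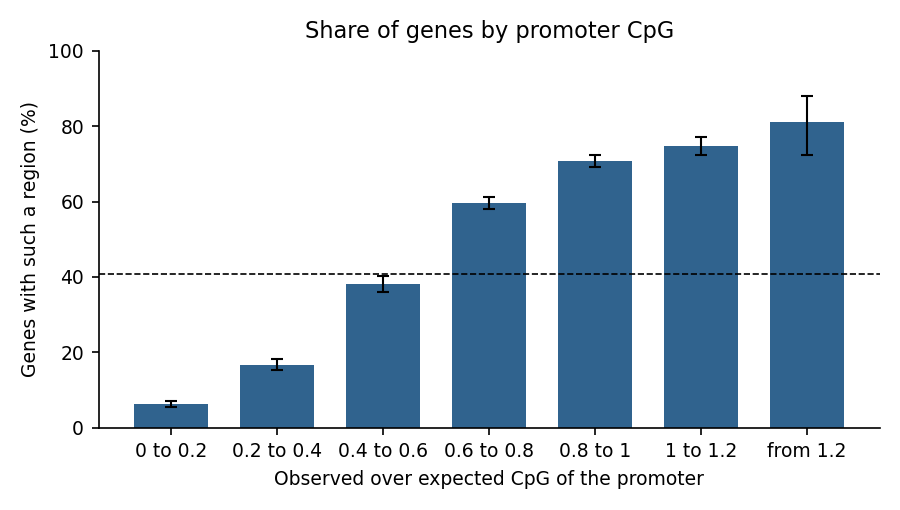
Share of genes with a member by the CpG ratio of the promoter. Bars are the percent of genes in each bin of observed over expected CpG, error bars are 95% Clopper-Pearson intervals for counting, and the dashed line is the 40.7% of all protein-coding genes. The share climbs from 6.33% in the lowest bin to 81.1% in the highest.

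Few genes with a low CpG ratio had a member, but some of those members stood early. The ratio is that of the gene's own start window, and the member can also lie at another gene. Asb15 (ratio 0.23) shared its member with Ndufa5 (0.68), and Vmn1r4 (0.14) shared its member with Nt5c3. Of 5407 genes with a CpG ratio below 0.3, 497 (9.19%) had a member. Among them, the earliest by latest place was at Zbtb20, a zinc finger repressor of the liver, with a ratio of 0.21 and places of 0.213 and 0.264 in WT and 0.139 and 0.162 in PA. Cnga4, a channel subunit of olfactory neurons, followed with a ratio of 0.14 and places of 0.179 and 0.407 in WT and 0.219 and 0.213 in PA. Low ratios were less frequent among genes with early members. They made up 3.15% of the first 25% of members' genes by mean place and 11.3% of the last 25%. The median ratio was 0.83 and 0.75 in these sets.

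The motif letters were counted in windows of 300 bases on both strands. GC boxes (GGGCGG, bound by the SP and KLF factors) were in 68.5% of promoters with a member, 53.0% of those called in 1 to 3 libraries and 26.7% of those with no call, against 46.9% of all promoters. ETS sites (CCGGAAG) were in 20.2%, 12.3% and 4.86%, and in 12.1% of all promoters. NRF1 sites (GCATGCGC) were in 6.20%, 3.85% and 1.35%, and in 3.64% of all. The order was the same for the cAMP response element (TGACGTCA; 3.69%, 2.42% and 1.18%; all 2.36%), for the YY1 site (AAGATGGCG; 3.48%, 2.25% and 0.485%; all 1.92%) and for the ZNF143 site (ACTACAATT; 0.846%, 0.495% and 0.303%; all 0.550%). E-boxes (CACGTG) were in 10.6%, 9.18% and 5.48%, and in 8.01% of all. The CGCG palindrome (CTCGCGAGA) was in 1.97% of promoters with a member, 0.330% with a call in 1 to 3 libraries and 0.388% with no call, and in 1.04% of all. No motif of the 12 shares its letters with another in full, but matches can overlap in a window, as GC boxes do in Hibch.

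Among promoters with a CpG ratio of 0.6 or more, most of these differences narrowed. GC boxes were then in 76.3% of promoters with a member and 69.0% of those with no call, and E-boxes in 11.6% and 11.2%. ETS sites were in 23% and 11.5%, and YY1 sites in 4.19% and 1.76%. Over promoters of any ratio, the TATA box (TATAAA) ran the other way. It was in 6.49% of promoters with a member, 10.4% of those called in 1 to 3 libraries, 20.1% of those with no call and 13.4% of all. From a ratio of 0.6 this difference narrowed as well, to 5.16%, 6.45% and 7.58%. The shares that follow are again over promoters of any ratio, unless stated. The sites of the liver factors HNF1 (GTTAATNAT) and HNF4A (CAAAGTCCA) were rare in the 300 bases: 0.486% and 0.361% with a member, 1.32% and 0.659% with a call in 1 to 3 libraries, 0.958% and 0.425% with no call, and 0.799% and 0.423% of all. CCAAT boxes (CCAAT), bound by NF-Y, were in 42.0% of promoters with a member, 32.5% and 39.0% of the other sets and 39.6% of all. From a ratio of 0.6 the shares of the same sets were 41.2%, 28.5% and 32.7%. By place, CCAAT boxes were in 51.1% of the first 25% of members' genes and 35.3% of the last 25%. For GC boxes the early and late shares were 78.4% and 57.3%, for ETS sites 17.4% and 22.2%, and for TATA boxes 4.70% and 8.02%. A match is a stretch of letters and was not tested as a binding site.

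The genes behind the members were counted in 31 lists of 3 kinds and 7 lists of cell type markers, beside the 40.7% of all protein-coding genes that had a member. Genes for machinery that every cell needs had a member in 432 of 558 cases (77.4%). For translation, members stood at 62 of 83 cytosolic ribosomal protein genes, 57 of 78 mitochondrial ribosomal protein genes, 44 of 54 translation initiation factors and 12 of 19 tRNA synthetases. For RNA synthesis and processing, they stood at 21 of 27 subunits of RNA polymerases I, II and III, 22 of 28 Mediator subunits and 30 of 32 core spliceosome proteins. The spliceosome genes without a member were Eftud2, called in 2 libraries, and Snrpd1, called in 3. For respiration they stood at 33 of 37 subunits of complex I and 31 of 38 subunits of complexes II to V. The remaining lists gave 28 of 39 proteasome subunits, 21 of 26 nuclear pore proteins, 17 of 23 coat proteins of the Golgi and endoplasmic reticulum, 13 of 17 peroxisome biogenesis factors, 16 of 24 vacuolar ATPase subunits, 10 of 12 members of the KAT8 histone acetyltransferase complexes and 15 of 22 SWI/SNF chromatin remodelling subunits.

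Some of these members were among the earliest in the lists. The mitochondrial ribosomal gene Mrpl17 had places of 0.629 and 1.08 in WT and 0.629 and 1.10 in PA. Atp5j, a subunit of ATP synthase, had 0.520 and 1.44 in WT and 1.2 and 1.64 in PA. Eif2ak3, the kinase PERK that slows translation under endoplasmic reticulum stress, had 1.16 and 1.34 in WT and 1.53 and 1.36 in PA. Every place of these genes lay in the first 2% of the order. Tpr and Nup107 (nuclear pore), Sec23a (a coat protein of vesicles leaving the endoplasmic reticulum) and Actl6a (SWI/SNF) had latest places of 4.13, 4.43, 3.03 and 3.80. Psma2, a proteasome subunit, and Mrpl32 shared a member with places of 2.02 and 3.88 in WT and 3.46 and 3.09 in PA. Among the KAT8 complexes, Msl2 came first with 8.10 and 6.94 in WT and 7.29 and 4.30 in PA, while Msl1 had no call and Hcfc1 was called in 3 libraries.

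Genes with specialised roles in the liver had a member in 108 of 271 cases (39.9%), near the share of all genes, but the lists within this group ranged widely. Enzymes of amino acid degradation had a member in 43 of 53 cases (81.1%), 14 of 30 hepatocyte transcription factors had one, and so did 28 of 71 plasma protein genes, 19 of 74 cytochrome P450 genes of families 1 to 4, 3 of 21 UDP-glucuronosyltransferases and 1 of 22 major urinary proteins. Median CpG ratios were 0.49 for the amino acid genes, 0.23 for the plasma proteins and 0.14 for the cytochrome P450 genes. Of genes in these lists with a ratio below 0.3, a member stood at 7 of 10 amino acid genes, 4 of 7 transcription factors, 15 of 37 plasma protein genes, 12 of 53 cytochrome P450 genes, 2 of 18 UDP-glucuronosyltransferases and 1 of 10 major urinary proteins, beside 9.19% of all low-CpG genes. The major urinary protein Mup21 stood late in every list (84.9 and 83.7 in WT, 99.1 and 79.9 in PA), as did the UDP-glucuronosyltransferases Ugt2b34, Ugt3a2 and Ugt2b1, whose places ran from 73.4 to 98.9.

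The hepatocyte transcription factors with the earliest members were Cebpa, of C/EBP alpha (2.82 and 1.58 in WT, 2.59 and 2.47 in PA), Ppara, the sensor of fatty acids (2.68 and 1.99 in WT, 5.19 and 1.15 in PA), and Nr0b2. Hnf4a was called in 3 libraries, and Foxa1, Foxa2, Nr1h4, Rxra and Prox1 had no call at either end. Of 18 hepatocyte markers 8 had a member and 8 were called in 1 to 3 libraries. Alb, the albumin gene, was called in 1 library, and Apoa2, Apob, Serpina1a, Fgb and Ahsg in 3. Markers of other cells seldom had a member: 2 of 10 for liver endothelial cells (Tie1 and Kdr), 1 of 9 for stellate cells (Reln), and 0 of 12 for Kupffer cells, 0 of 7 for bile duct cells, 0 of 10 for lymphocytes and 0 of 9 for neutrophils and erythroid cells. Of the hepatocyte markers 2 (Apoa1 and Foxa2) had no call at either end in any library. The other markers had no call in 6 of 12 cases for Kupffer cells, 6 of 10 for endothelial, 5 of 9 for stellate, 6 of 7 for bile duct cells, 9 of 10 for lymphocytes and 7 of 9 for neutrophils and erythroid cells. Which of the factors and markers to name was chosen after their values were seen, other than for the earliest.

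Genes of other tissues had a member in 17 of 1813 cases (0.938%). The counts were 2 of 1106 olfactory receptors, 3 of 391 vomeronasal and taste receptors, 2 of 105 keratins and keratin-associated proteins, 1 of 39 Hox genes, 1 of 57 clustered protocadherins, 3 of 30 neuronal genes, 2 of 30 striated muscle genes, 3 of 30 germ cell genes and 0 of 25 pancreatic genes. Of these 17 genes, 6 had a region that also lay at the end of another coding gene. Gdf9, a growth factor of the oocyte, shared one with Uqcrq, a subunit of respiratory complex III (10.2 and 6.99 in WT, 4.36 and 3.69 in PA). The pheromone receptor Vmn1r4 shared one with Nt5c3 and Mylpf, a muscle myosin light chain, with Tbc1d10b. Those with no neighbour included Krt8, a keratin that hepatocytes make (32.6 and 33.4 in WT, 43.4 and 41.9 in PA), and Syn1, a synaptic protein that stood late (92.3 and 95.9 in WT, 96.3 and 90.7 in PA). By chromosome the share of genes with a member was lowest on X (28.9%) and chromosome 7 (32.5%) and highest on chromosome 12 (48.7%).

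**Figure D4:**
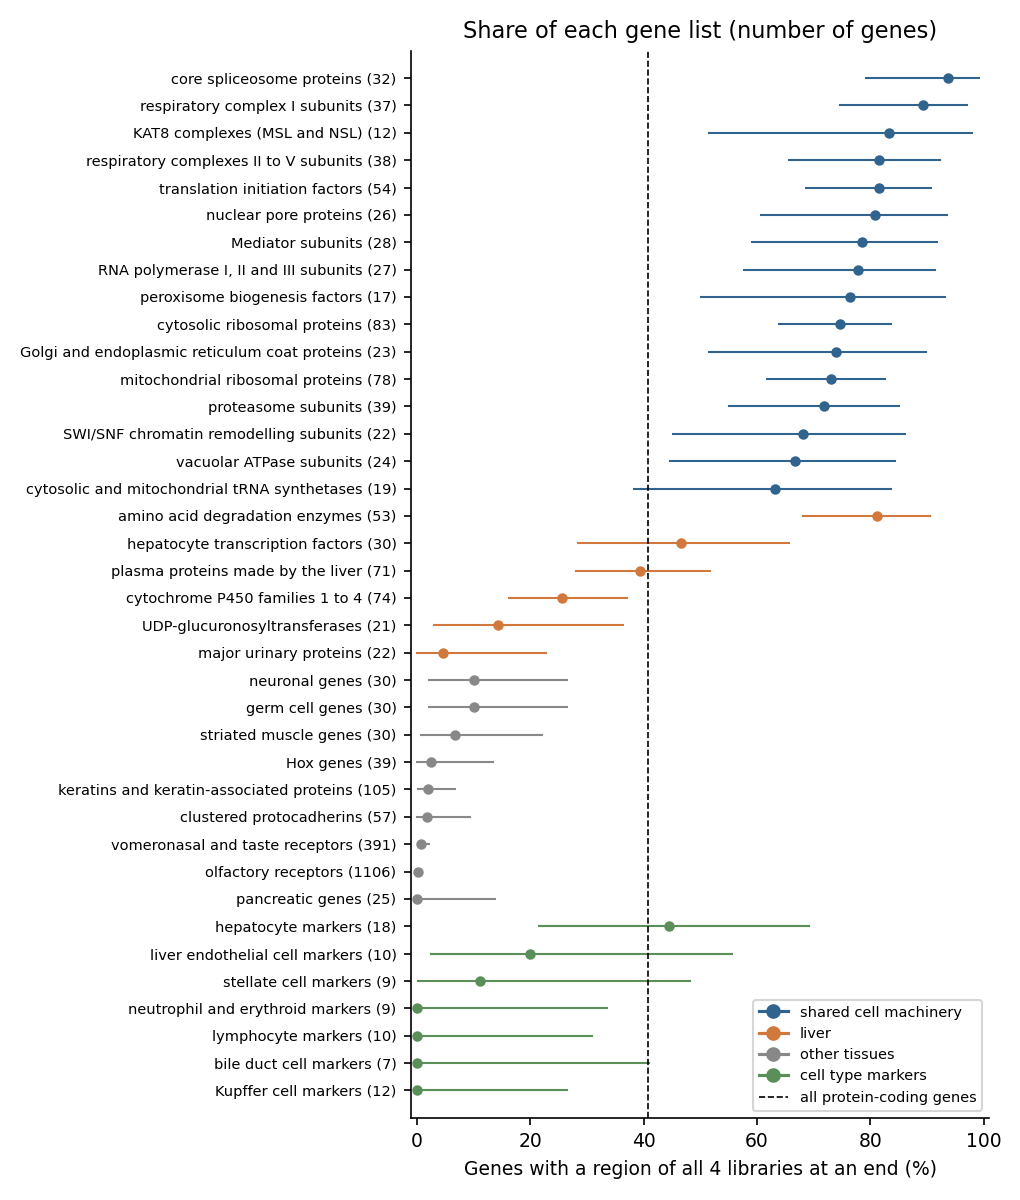
Share of the genes of each list with a member. Points are the percent of genes, lines are 95% Clopper-Pearson intervals for counting, the number of genes is in parentheses, colours give the kind of list, and the dashed line is the 40.7% of all protein-coding genes. Every list of shared cell machinery lies above that line and every list of other tissues below it.

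The mutated pathway was covered at nearly every step. Valine, isoleucine and other precursors are broken down to propionyl-CoA, which propionyl-CoA carboxylase turns into methylmalonyl-CoA, and the epimerase Mcee and the mutase Mmut carry it to succinyl-CoA. Of 14 genes of propionate and branched-chain amino acid breakdown, 13 had a member. These genes are part of the list of amino acid degradation enzymes, of which 43 of 53 (81.1%) had one. The share was 77.4% in the machinery lists and 40.7% of all protein-coding genes, so a high share was not particular to this pathway. Mmut had places of 0.606 and 1.23 in WT and 2.36 and 1.66 in PA, so that both PA lists placed it later, by under 2 points. Mcee had 7.77 and 6.50 in WT and 4.61 and 4.26 in PA, the opposite order. Hibch, a hydrolase of valine breakdown, stood at 0.412 and 0.896 in WT and 0.418 and 0.60 in PA, and Aldh6a1, which makes propionyl-CoA from the valine intermediate, at 3.27 and 4.97 in WT and 3.19 and 4.55 in PA. In these last genes the genotypes overlapped. The subunits of the branched-chain keto acid dehydrogenase stood later, with Bckdha at 19.1 and 12.8 in WT and 20.5 and 29.2 in PA, and Dbt at 51.5 and 35.2 in WT and 35.9 and 34.5 in PA.

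Pccb had a merged member of 707 bp at chr9:101034421-101035127 that covered its start. Each library had a single peak in this region, and nearly all peaks were 400 bp long. The peaks of the libraries were thus shifted against each other, and not every one need cover the start. The places of the member were 31.6 and 23.4 in WT and 15.2 and 23.1 in PA. Both PA lists placed it earlier, by 0.36 points between the nearest libraries. Pcca was the 1 gene of the 14 without a member. No peak lay within 1 kb of its annotated start at position 122484365 of chromosome 14, in any library. A region called in all 4 libraries lay instead at chr14:122534040-122534470, 49675 bp inside the gene, with places of 5.74 and 4.29 in WT and 4.09 and 4.20 in PA. It covered a second listed start of Pcca at position 122534328. The window of the first start has a CpG ratio of 0.42 with 9 CpGs, and that of the second has 0.65 with 21 CpGs and 2 GC boxes beside a CCAAT box. Such inner starts lay under 661 of the 9799 regions of all 4 libraries that were not at a gene end (6.75%).

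Genotype was compared by place and was not tested: 4 libraries can be split into pairs in 3 ways, so an exact permutation test cannot go below 0.333, and what place measures is not stated. Both PA lists placed a member earlier than both WT lists at 1304 members (16.8%), beside 15.0% of all regions in all 4 libraries. Both WT lists placed it earlier at 870 members (11.2%), beside 14.0%. At 72.1% of members the genotypes overlapped. The balance between these counts rested on single libraries. With 3 lists, it was 2152 against 2413 without WT 1 and 2027 against 2662 without PA 1, so the order of the counts turned, and it was 3447 against 1672 without WT 2 and 3835 against 1687 without PA 2. Of the members with no overlap, 60.0% were earlier in PA. Over all regions in all 4 libraries, 2636 were earlier in PA and 2470 in WT. The 60.0% became 53.3% when places were ranked among regions at gene ends alone. It became 80.5% when place was the percent of the whole deposited list, which was longest in PA 2 (29765 lines) and shortest in PA 1 (25683). The counts with 3 lists and on these other scales were made for members only. Whether they are particular to members was not tested. Few gaps were wide. The nearest libraries of the genotypes were more than 10 points apart at 71 of the 7782 members with PA earlier and at 60 with WT earlier. Over all 17581 regions in all 4 libraries these counts were 264 and 370, and over the 9799 not at a gene end they were 193 and 310.

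Among regions earlier in both PA lists, the widest gap, 24.6 points, lay 885 bp beyond Nol9, a kinase of ribosomal RNA processing (68.4 and 69.6 in WT, 43.9 and 29.3 in PA). At starts, Slc25a12, the mitochondrial aspartate-glutamate carrier, had 70.0 and 70.4 in WT and 41.0 and 47.2 in PA. Klhl20, an adaptor of a ubiquitin ligase, had 83.1 and 83.0 in WT and 48.8 and 62.3 in PA. In these the WT lists were alike and the PA lists stood 6 points or more apart. Bhmt, which remethylates homocysteine with betaine, had 48.1 and 48.5 in WT and 31.5 and 16.8 in PA. Single libraries set some of these gaps, which became 39.1 at Nol9 and 31.3 at Bhmt without PA 1, and 34.2 at Klhl20 and 28.5 at Ttc12 without PA 2. The other 6 were at Fam117a, Lsm5 (a subunit of the ring on U6 RNA), Haspin (a histone H3 kinase of mitosis), Fbxo28, Rabl2 and Ttc12 (both genes of cilia), with gaps of 16.4 to 19.2. Ranked among regions at gene ends alone, the 10 gaps were 6.94 to 21.0, and 5 of them moved by over 1.5 times (Nol9, Lsm5, Fbxo28, Bhmt and Rabl2).

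Among regions earlier in both WT lists, the widest gap, 35.8 points, lay 214 bp from the far end of Pgd, an enzyme of the pentose phosphate pathway (27.7 and 34.2 in WT, 70.0 and 77.0 in PA). Chac1, which degrades glutathione and is a target of the amino acid stress factor ATF4, had 14.2 and 11.2 in WT and 35.8 and 32.4 in PA. The receptor gene Fgfr3 had 42.8 and 37.7 in WT and 62.7 and 60.9 in PA. Prex2, an exchange factor of Rac, had 24.3 and 22.3 in WT and 45.5 and 44.8 in PA. The other 5 were at Adprhl1, at Ntsr2 and Lpin1 (a phosphatidate phosphatase of lipid synthesis), at Pkp2 (a desmosome protein), at Lysmd1 and Tnfaip8l2, and at Slc9b2, with gaps of 17.8 to 19.9. The gap was 29.9 at Adprhl1 without WT 1, 29.4 at Lysmd1 and Tnfaip8l2 without PA 1, and 28.3 at Slc9b2 without WT 2. Ranked among regions at gene ends alone it fell to 8.37 at Ntsr2 and Lpin1 and to 7.77 at Slc9b2. With place as percent of the whole list it was 10.5 at Chac1, 9.69 at Fgfr3, 11.8 at Prex2 and 10.5 at Pkp2. By the selection rule, all of these regions, in both directions, were called in all 4 libraries. They could thus differ between libraries in place only, and not in whether there was a peak. They were picked as the widest gaps among 7782 members, and a difference between the genotypes was not tested.

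The PA libraries differed from each other at liver genes more than the genotypes did. Over all members, PA 1 was the list with the earliest place at 45.0% and the one with the latest at 16.3%. At members of the machinery lists these shares were 46.8% and 9.46%. At members of the liver lists PA 1 was latest at 60 of 108 (55.6%), and PA 2 was earliest at 48 (44.4%), against 13.6% of all members. Median places of the liver lists were 31.6 and 31.2 in WT, 39.8 in PA 1 and 27.9 in PA 2, so the WT lists lay between the PA lists. PA 1 was latest at 21 of 28 plasma protein regions, 23 of 43 regions of amino acid genes, 9 of 19 cytochrome P450 regions, 6 of 14 regions of hepatocyte transcription factors, 1 of 1 major urinary protein region and 7 of 8 regions of hepatocyte markers. It was latest at 0 of the 3 UDP-glucuronosyltransferase regions, which all stood latest in WT 1. This split was noticed in the data and was not tested.

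Genes chosen after their values were seen show the size of it. Tdo2, the first enzyme of tryptophan breakdown, had places of 11.6 and 18.1 in WT, 46.0 in PA 1 and 14.5 in PA 2. Cps1, the first enzyme of the urea cycle, had 56.5 and 60.2 in WT, 85.4 in PA 1 and 49.9 in PA 2. Ttr, the carrier of thyroid hormone and retinol, had 24.2 and 22.3 in WT, 42.8 in PA 1 and 24.1 in PA 2. In each of these PA 1 alone stood apart, and PA 2 was near or before the WT lists. Pck1, of glucose synthesis, had 4.33 and 5.06 in WT, 14.0 in PA 1 and 2.48 in PA 2, and Fgg, a chain of fibrinogen, had 17.7 and 15.2 in WT, 24.4 in PA 1 and 6.99 in PA 2. By pathway, PA 1 was latest at 4 of 4 urea cycle regions, 2 of 2 of tryptophan breakdown, 4 of 6 of methionine and cysteine metabolism, 2 of 3 of histidine breakdown, 2 of 4 of phenylalanine and tyrosine breakdown, 0 of 2 of glycine cleavage and 7 of 9 of the remaining amino acid enzymes. It was latest at 2 of 13 regions of propionate and branched-chain amino acid breakdown, where it was the earliest at 6. Over all members PA 1 was latest at 16.3% and earliest at 45.0%, so these 13 regions stood near the shares of all members.

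**Figure D5:**
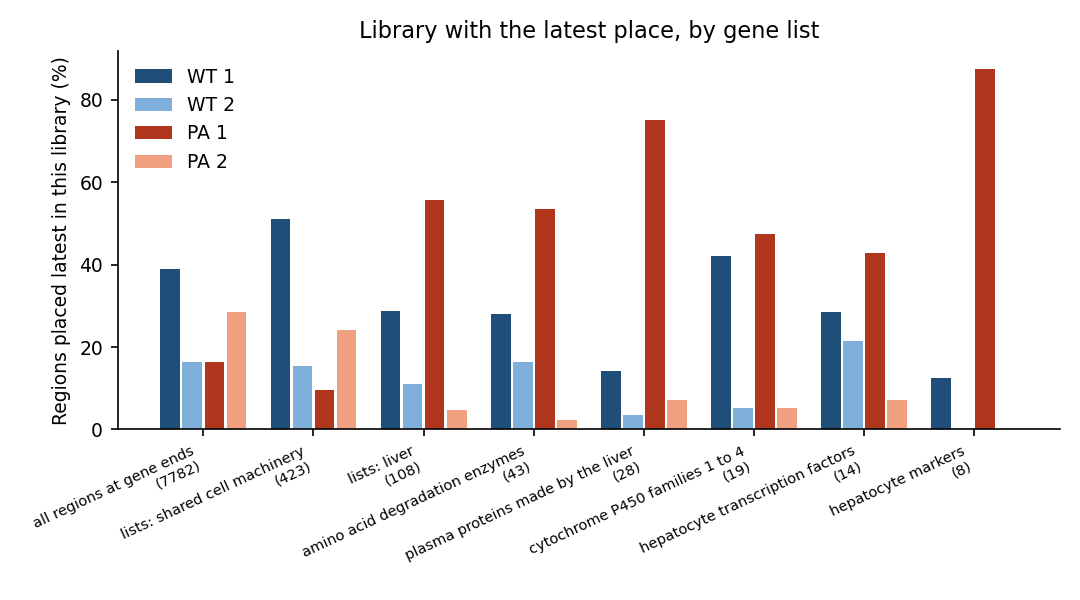
Which library placed a region latest, by gene list. Bars are the percent of the regions of a list (number in parentheses) whose latest place was in that library, and the bars of a list add to all of its regions. PA 1 has 16.3% of all regions at gene ends and 9.46% of the machinery lists, but 55.6% of the liver lists.

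Markers of other cell types gave few values to set beside this. The endothelial regions at Tie1 (81.0 and 65.9 in WT, 54.2 in PA 1, 75.3 in PA 2) and Kdr (89.4 and 73.3 in WT, 53.4 in PA 1, 83.0 in PA 2) were earliest in PA 1, as were 45.0% of all members. The Kdr region lay 746 bp from the far end of the gene and not at its start. The stellate region at Reln stood at 47.0 and 72.8 in WT, 83.1 in PA 1 and 83.7 in PA 2. These were all the members at the 57 markers of other cell types, and 54 of those markers had none. In bulk tissue, fewer cells of a type and less open chromatin per cell cannot be told apart, and the part of cell makeup in the order of PA 1 was not tested. Members at genes with a promoter CpG ratio below 0.3 stood latest in PA 1 at 37.8%, and members at genes from 0.6 at 13.8%. Promoters with low ratios are frequent in the liver lists, and the part of base composition was not tested.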

How the data were processed

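ATAC-seq was done on 4 mouse livers, 2 WT and 2 PA, and groups and replicate numbers come from the sample titles. The authors deposited 1 list of peak positions per library (chromosome, start and end), which carry no measurement and no score, so read depth is unknown and no interval that needs it is given. The submitters' processing notes name HOMER 4.10, bedtools 2.31.0, R 4.1.2, SAMtools 1.17, Bowtie2 2.5.1 and cutadapt 3.5, and the build GRCm38 (mm10). Which tool called peaks, at what threshold, and how reads were filtered or shifted is not given in these sources. A library with more reads can pass a threshold at more places.

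From these positions, regions, places in the lists, distances and shares were computed with Python 3.11.15, pandas 2.3.3, numpy 2.4.6, scipy 1.17.1 and matplotlib 3.10.9. The steps were tested on simulated intervals. Gene ends and promoter windows came from RefSeq tables of GRCm38.p6. Strand is known only for genes in the promoter table, and for genes with several listed starts the one nearest the annotated 5′ end was used. The CpG ratio is the number of CpGs times the window length, divided by the product of the numbers of C and G. Of the list genes, 15 were matched by an older symbol and 0 were unmatched. No region held more than 1 peak of a list, and no libraries were duplicates, since 1393 to 2341 peaks were identical between pairs.

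Members and lists were chosen with earlier results of these data known. The text names Pcca and Pccb, the 10 members with the earliest latest place, the 10 with the widest gap between genotypes in each direction, the 5 longest, the 5 earliest at 3 or more genes, and up to 3 genes per list by the same order together with genes without a member where there were at most 3. 1 region that this rule selects is not reported here. Other genes were named after their values were seen. Alternatives were the distance, the length of list used, the bases shared by the peaks, the scale of place and leaving out each library. The ordering in the closing paragraphs of the results, by library, was added after seeing the data.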

Additional observations from a re-analysis of the deposited data

How the results depend on the processing

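No paired analysis was possible because the results come from no test. The number of members stayed within 1.5 times under every alternative, from 5729 in the first 50% of each list to 8317 within 2 kb, and was 7897 to 8089 without 1 library. The share of regions of all 4 libraries at gene ends was 36.1% when the region had to overlap the end, 47.3% within 2 kb, 59.9% in the first 50% of each list, 35.5% with 5′ ends only and 40.8% to 43.7% without 1 library. The share of genes with a member was 32.4% by overlap, 43.7% within 2 kb, 38.7% with at least 200 bp common to the 4 peaks, 30.7% in the first 50% of each list and 41.3% to 42.1% without 1 library. Members earlier in both PA lists numbered 2274, and in both WT lists 551, with place as percent of the whole list. Leaving out 1 library gave 2027 to 3835 and 1672 to 2662, with 1 list on a side. Ranking among members alone (added after seeing the data) gave 1354 and 1185. The counts by place under these alternatives were made for members only.

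The median CpG ratio was 0.88 over the 75 bases before and the 50 after the start, an alternative added after seeing the data. The planned shorter window centred on the start was not run, as the windows end 50 bases after it. The share of liver-list regions latest in PA 1 was 55.6% on the scale of the whole list and 70.4% ranked among members, where over all members it was 18.3% and 28.0%, and the share earliest in PA 2 was 58.3% and 49.1%, where over all members it was 25.2% and 20.2%. The 10 widest gaps in each direction kept their sign under both scales but not their size. Those earlier in PA were 13 to 26.3 on the whole list (2 moved by over 1.5 times) and 6.94 to 21.0 among members (5 moved). Those earlier in WT were 9.69 to 28.2 (5 moved) and 7.77 to 34.6 (2 moved). Leaving out a library can only widen a gap, and gave up to 39.1 and 42.8. Of the 31 gene lists, shares left their own interval under the first 50% of each list at 15 and by overlap at 4. Depth is unknown, so a missing call cannot be read as closed chromatin.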
